A study of Sus scrofa with 21 samples.

Results

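The genes described here are those of the proteasome, taken as every row of the deposited count table whose gene name begins with PSMA, PSMB, PSMC, PSMD or PSME followed by a digit and which reached at least 1 CPM (counts scaled to library size) in 2 or more libraries. Of 38 rows whose name fitted, 36 reached that level, out of 25880 genes in the table. PSMB11, a subunit known from thymic epithelium, had 0 counts in every library, and PSMA8, a testis form of PSMA7, had 2 counts in all. All 36 genes passed the filter on low counts and were among the 15359 genes tested. By role they are 5 subunits of the alpha ring, 6 constitutive subunits of the beta ring, 3 immune catalytic subunits, 6 ATPases of the regulatory particle, 10 of its non-ATPase subunits, 2 assembly factors of its base and 3 activators. PSMC3IP also fits the name rule but is no subunit: it is a factor of meiotic recombination. Its values are given on their own below, but counts and medians over the 36 genes include it. Another 5 subunits, PSMA2, PSMA5, PSMD4, PSMD9 and PSME2, carry no name in the table and were found by gene ID through a reference table of names. They are not among the 36 and are given beside them. PSMB5 was not analysed here.

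The RNA came from hearts of 21 newborn to juvenile pigs, with 1 library per pig. In the myocardial infarction (MI) groups the left descending coronary artery was tied permanently on postnatal day 1, and tissue from the border of the ischaemic zone was collected on day 7 (n = 3), 14 (n = 3) and 28 (n = 2). The naive groups were collected on days 1 (n = 2), 3 (n = 2), 7 (n = 3), 14 (n = 3) and 28 (n = 3), from the matching region of the heart. The sample titles call these pigs naive, while the treatment protocol describes surgery without the ligation, and the sources do not settle which of these holds. The sources used here do not give strain, sex or litter.

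Total counts per library ran from 37002909 to 95559841, and the 36 genes took 0.187% to 0.329% of them. Cardiac markers were high in every group, with 38591 to 100272 CPM summed over the 9 of 10 cardiomyocyte markers in the table, of which TNNI3 was at 0 in every library. Of the 21 libraries, 4 stood apart from the other 17 by an almost absent gene, ENSSSCG00000035520, which was under 100 CPM in them: the third pig listed for MI day 7 and for naive day 14, and the second pig listed for MI day 28 and for naive day 28 (replicates 3, 3, 2 and 2). Without these 4 libraries edgeR called 0 of the 36 genes in every comparison that does not use the MI hearts of day 28. The share over all genes is not given for those fits. MI day 28 is then left with 1 library. Fold changes without the 4 libraries stand beside the results below.

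The proteasome is the large barrel-shaped protease that degrades proteins marked with ubiquitin. Its core is built of outer alpha rings, which gate the entrance, and inner beta rings, in which PSMB5, PSMB6 and PSMB7 hold the cutting sites. Under interferon signalling, or constantly in many blood cells, these are replaced by PSMB8, PSMB9 and PSMB10, which gives the immunoproteasome and changes the peptides offered to T cells. The regulatory particle binds, unfolds and strips substrates of ubiquitin, and other caps such as PSME1 with PSME2, PSME3 and PSME4 can take its place. In muscle the same machinery carries out much of the turnover of contractile proteins. These roles are described mainly from human, mouse and yeast work.

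PSMB8 and PSMB9 lie together on chromosome 7, on either side of TAP1, which encodes a subunit of the peptide transporter of antigen presentation. In the RefSeq annotation of Sscrofa11.1 the start of PSMB9 (chr7:25072133-25077508, plus strand) is separated from TAP1, on the opposite strand, by 143 bases, and PSMB8 (chr7:25058456-25061666, minus strand) from TAP1 by 1105 bases. PSMB10 lies elsewhere, at chr6:28544910-28547609 on the minus strand. PSME1 and PSME2 also lie in a pair on chromosome 7, 3958 bases apart. The 250 bases before the annotated gene start were searched, and are shown for the immune catalytic subunits, because these varied most between pigs, and for PSMD14 (chr15:68107379-68208884, plus strand), which had the lowest adjusted p when MI and naive hearts were compared over the mean of the 3 days. Capitals mark matches to the core of the interferon-stimulated response element (GAAA and GAAA with 2 bases of any kind between), TTCNNNGAA (gamma-activated sequence), TGACNNNGC (antioxidant response element), CCAAT and CACGTG (E-box), searched on both strands. The windows shown are chr7:25061667-25061916 (minus strand) for PSMB8, chr7:25071960-25072132 (plus) for PSMB9, chr6:28547610-28547859 (minus) for PSMB10 and chr15:68107129-68107378 (plus) for PSMD14.
PSMB8: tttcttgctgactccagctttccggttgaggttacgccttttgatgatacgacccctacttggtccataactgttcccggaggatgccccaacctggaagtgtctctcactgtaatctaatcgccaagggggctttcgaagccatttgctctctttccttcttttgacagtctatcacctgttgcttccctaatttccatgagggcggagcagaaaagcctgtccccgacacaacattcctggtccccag
PSMB9: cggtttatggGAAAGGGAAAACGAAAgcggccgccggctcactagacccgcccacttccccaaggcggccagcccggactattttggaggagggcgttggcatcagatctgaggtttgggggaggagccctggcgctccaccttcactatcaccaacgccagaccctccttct
PSMB10: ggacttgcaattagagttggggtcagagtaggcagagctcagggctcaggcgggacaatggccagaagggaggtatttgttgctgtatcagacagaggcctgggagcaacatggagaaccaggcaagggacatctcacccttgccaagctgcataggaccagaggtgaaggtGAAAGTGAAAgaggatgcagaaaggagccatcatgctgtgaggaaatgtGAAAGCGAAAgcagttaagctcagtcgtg
PSMD14: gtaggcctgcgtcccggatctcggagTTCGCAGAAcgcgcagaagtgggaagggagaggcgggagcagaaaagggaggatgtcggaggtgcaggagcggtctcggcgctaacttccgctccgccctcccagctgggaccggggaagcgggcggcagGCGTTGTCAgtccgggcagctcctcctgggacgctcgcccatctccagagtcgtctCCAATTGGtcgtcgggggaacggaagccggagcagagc

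PSMB9 held 2 overlapping interferon-stimulated cores, GAAAGGGAAA and GAAAACGAAA, between 163 and 148 bases before its start. They lie inside the annotated TAP1 gene, which starts on the opposite strand at position 25071989: 107 bases of the window searched for PSMB9 are non-coding sequence of the first exon of TAP1, of which 30 are shown. PSMB10 held 2 separate ones, GAAAGTGAAA from 78 to 69 bases and GAAAGCGAAA from 29 to 20 bases before its start. PSMB8 held none of the 5 motifs in this window. PSMD14 held an antioxidant element on the minus strand, a gamma-activated sequence, and CCAAT on both strands, where the 2 CCAAT matches overlap. Its gamma-activated match lies in the 107 bases of the window that belong to an exon of a long non-coding RNA gene, LOC110257003, on the opposite strand. Over all 19531 promoter windows of the same length, 3.01% held the interferon-stimulated core, against 3 of the 36 genes here (PSMB9, PSMB10 and PSMC4). The antioxidant element was found in 9.97% of all windows and in 2 of the 36 (PSMC5 and PSMD14), CCAAT in 31.9% and in 12, the gamma-activated sequence in 6.11% and in 4, and the E-box in 6.39% and in 0. These matches are descriptions of letters, not of bound sites.

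Levels can be compared between genes only per length, here as CPM per kilobase of annotated exon, taken as the median over the 21 libraries. The length is the union of all RefSeq exons of a gene, while the counts are per Ensembl gene. This union can exceed the length of the transcripts present, so levels and their order between genes are approximate. On that scale PSMA7, an alpha ring subunit, was highest at 180 CPM per kb. The constitutive beta ring had a median of 79.0 over its 6 genes (48.1 to 99.4), the alpha ring 49.8 over 5 (28.9 to 180), the ATPases 44.3 over 6 (35.5 to 78.3) and the non-ATPase subunits 31.3 over 10 (12.6 to 63.9). The immune catalytic subunits lay lower, with PSMB10 at 18.6, PSMB8 at 15.5 and PSMB9 at 6.09 CPM per kb. Their constitutive counterparts PSMB7, which PSMB10 replaces, and PSMB6, which PSMB9 replaces, stood at 99.4 and 83.4 CPM per kb. The ranges over libraries of PSMB10 (11.4 to 49.8) and PSMB7 (76.1 to 166) did not overlap, nor did those of PSMB9 (2.04 to 14.4) and PSMB6 (59.8 to 122). Assembly factors and activators were low too, with medians of 7.95 and 12.6, and PSME1, the interferon-inducible cap subunit, was at 3.80 CPM per kb.

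**Figure D1:**
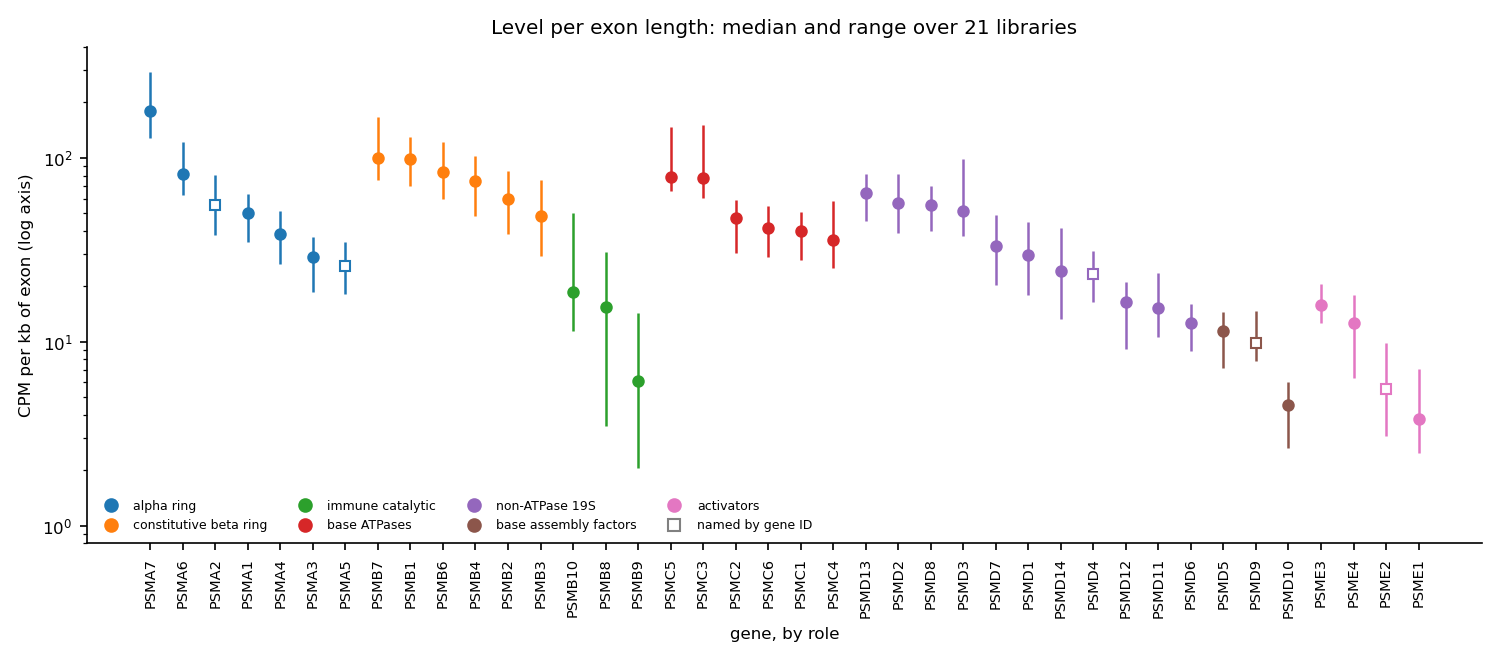
Level of each proteasome gene in CPM per kilobase of exon (log axis), grouped by role, with the point at the median and the line from the lowest to the highest of 21 libraries. Open squares are the 5 subunits named only by gene ID, and PSMC3IP is not drawn. PSMB9 and PSME1 stand at 6.09 and 3.80, far under the constitutive beta ring at 48.1 to 99.4.

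The immune catalytic subunits also varied most between pigs. Within groups, the standard deviation (SD) of log2(CPM + 1) was 0.62 for PSMB8, 0.58 for PSMB9 and 0.49 for PSMB10. The other 32 subunits and factors had 0.18 to 0.38, with a median of 0.27 that equals the median of all tested genes (0.27). Among all tested genes the 3 immune values lie at percentiles 91.5, 90.01 and 84.5, and among tested genes within 0.5 of each in mean log2 level at percentiles 91.7, 82.0 and 86.2. From the lowest to the highest library, PSMB8 spanned 8.86-fold, PSMB9 7.04-fold and PSMB10 4.38-fold, while the other 32 spanned 1.63-fold to 3.16-fold.

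Both classes of subunit did not move together in every library: their median deviations had opposite signs in 10 libraries and the same sign in 8, and in 3 either was 0. In MI day 14 replicate 2 the median deviation of the immune catalytic subunits from their median over libraries was 1.24 on the log2 scale, while the median of 31 constitutive genes was -0.21. In naive day 28 replicate 3 the immune value was -1.58 and the constitutive value 0.26, with 30 of the 31 above their median. In MI day 28 replicate 2, 1 of the 31 was above its median, with a constitutive value of -0.51 and an immune value of 0.33. MI day 7 replicate 3 was low in both, at -1.19 and -0.26.

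**Figure D2:**
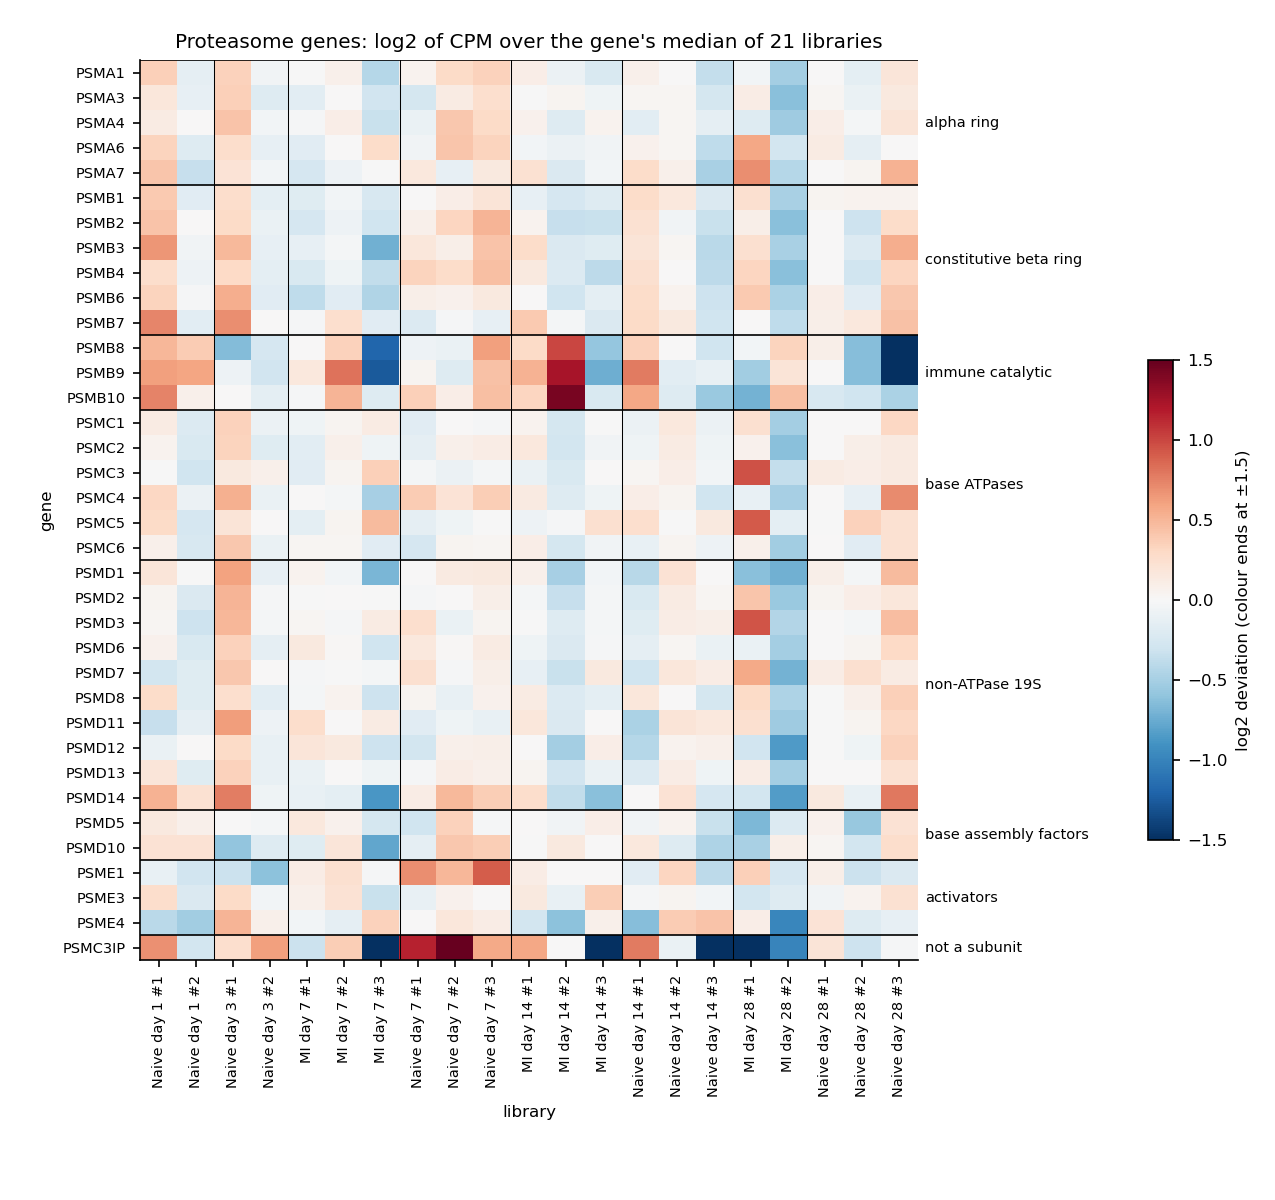
Deviation of each of the 36 genes from its own median over 21 libraries (log2 of CPM ratio, colours end at 1.5 in each direction), with genes in rows by role and libraries in columns by group. The rows of PSMB8, PSMB9 and PSMB10 show the strongest colours among subunits, with the highest values in MI day 14 replicate 2 (median 1.24). PSMB8 and PSMB9 are lowest in naive day 28 replicate 3 (median of the 3 genes -1.58). PSMB10 is at -0.47 there and lowest in MI day 28 replicate 1 (-0.71).

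PSMB8 (ENSSSCG00000026951), the immune form of PSMB5, had 26.5 and 24.3 CPM in naive hearts on day 1 and 11.9 and 15.7 CPM on day 3. It had 18.8, 23.9 and 8.21 CPM in MI hearts on day 7, against 17.8, 17.5 and 28.8 CPM in naive hearts. On day 14 it had 22.8, 37.4 and 12.5 CPM in MI hearts, against 23.8, 18.7 and 15.2 CPM in naive hearts. The groups overlapped on both days, and the highest and the lowest value of day 14 were both from MI pigs. On day 28 it had 18.3 and 23.6 CPM in MI hearts, against 19.9, 12.03 and 4.22 CPM in naive hearts, and the log2 fold change was 0.79 with an SE of 0.52 (adjusted p = 0.343). That overlap rests on the first naive pig, and the lowest value of all 21 libraries is the third.

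PSMB9 (ENSSSCG00000001463), the immune form of PSMB6, had 8.35 and 8.23 CPM in naive hearts on day 1 and 5.18 and 4.46 CPM on day 3. On day 7 it had 6.07, 9.57 and 2.27 CPM in MI hearts, against 5.598, 4.75 and 7.36 CPM in naive hearts. The MI values enclosed the naive ones. On day 14 it had 7.81, 12.9 and 3.28 CPM in MI hearts, against 9.35, 4.88 and 5.04 CPM in naive hearts, and again the MI values enclosed the naive ones. On day 28 it had 3.79 and 6.21 CPM in MI hearts, against 5.45, 3.50 and 1.83 CPM in naive hearts, which overlap (log2 fold change 0.47, SE 0.57, adjusted p = 0.619).

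PSMB10 (ENSSSCG00000031781), the immune form of PSMB7, had 30.7 and 19.3 CPM in naive hearts on day 1 and 18.3 and 16.6 CPM on day 3. It had 18.0, 26.1 and 15.9 CPM in MI hearts on day 7, against 23.4, 19.6 and 25.0 CPM in naive hearts. On day 14 it had 22.9, 49.0 and 15.7 CPM in MI hearts, against 27.3, 16.0 and 12.4 CPM in naive hearts. The groups overlapped on both days, although the second MI pig of day 14 was the highest of all 21. The day 14 log2 fold change was 0.65 (SE 0.38, adjusted p = 0.999), and 0.05 without that pig. On day 28 it had 11.2 and 25.1 CPM in MI hearts, which lie on both sides of the 15.5, 14.8 and 13.2 CPM in naive hearts. Its fold change there was 0.32 (SE 0.43, adjusted p = 0.656), and -0.35 without the 4 libraries that stood apart, 1 of which is the MI pig at 25.1 CPM.

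**Figure D3:**
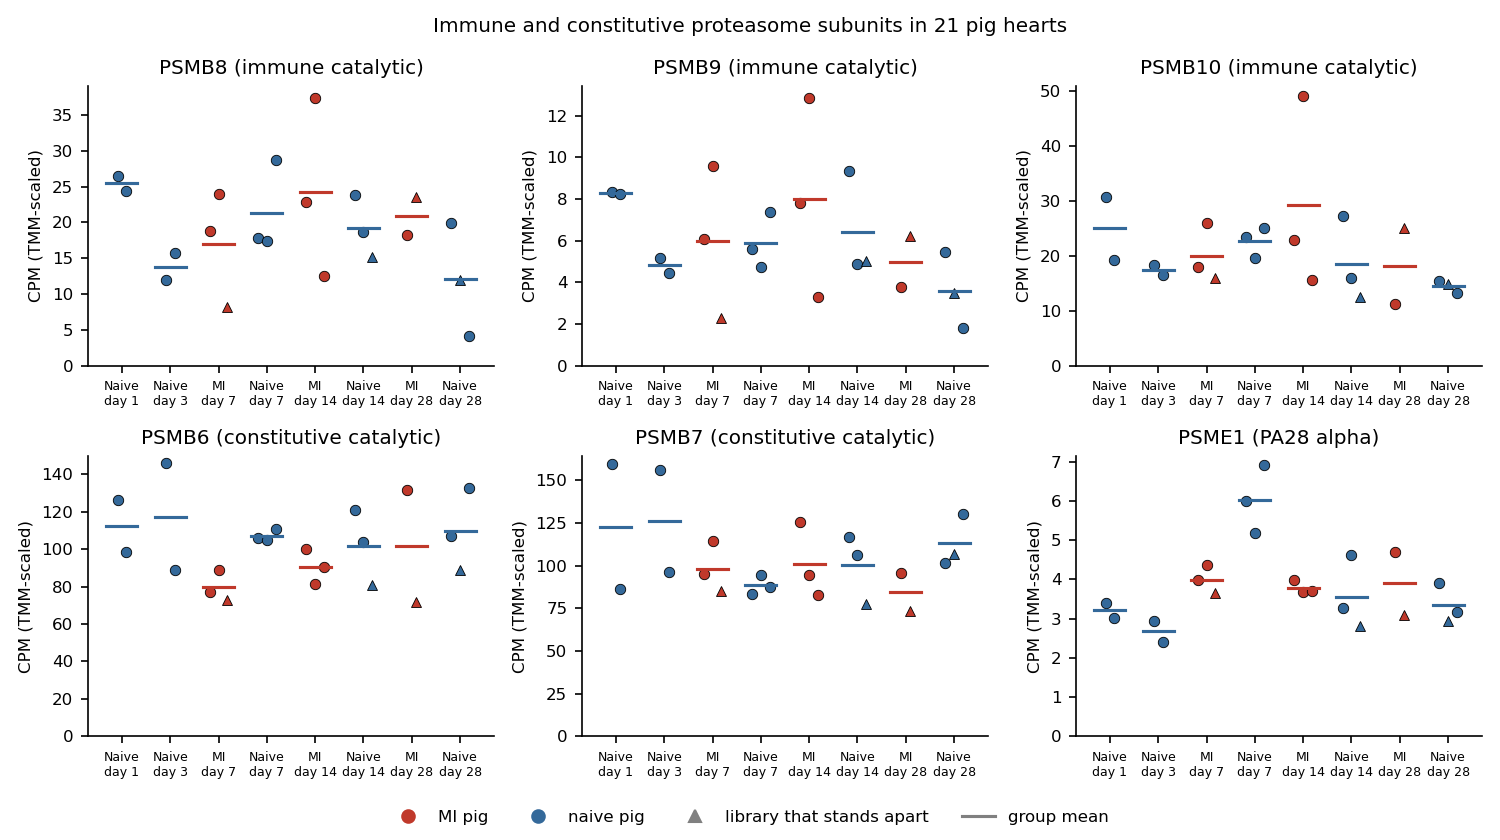
CPM of PSMB8, PSMB9, PSMB10, PSMB6, PSMB7 and PSME1 in each of 21 pig hearts (linear axes from 0), with groups along the x axis, MI in red and naive in blue, a line at each group mean and triangles for the 4 libraries that stood apart. The immune catalytic subunits scatter widely inside groups (PSMB8 from 12.5 to 37.4 CPM in MI hearts on day 14), and PSME1 is highest in the 3 naive hearts of day 7 (5.19 to 6.91 CPM).

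The balance of immune to constitutive subunit is free of library scaling when formed inside a library. The log2 ratio of PSMB9 to PSMB6 averaged -3.96 in MI and -4.21 in naive hearts on day 7, -3.71 in MI and -4.04 in naive hearts on day 14, and -4.32 in MI and -5.05 in naive hearts on day 28. The differences of 0.24, 0.33 and 0.73 were smaller than the pooled SD within groups, which was 0.69, 0.79 and 1.06. For PSMB10 to PSMB7 the differences were -0.34, 0.56 and 0.63, against pooled SDs of 0.22, 0.65 and 0.81. The first of these exceeds its SD, with means of -2.31 in MI and -1.97 in naive hearts on day 7, but the ranges of -2.42 to -2.13 and -2.28 to -1.81 overlap. On day 28 the log2 fold change of PSMB10 alone was 0.32 and that of PSMB7 was -0.42, so both genes enter that difference. In PSMB7 both MI pigs of day 28 lay under all naive pigs (background 21.4%). No test was run on these ratios.

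Across the 21 libraries PSMB8, PSMB9 and PSMB10 moved with IRF1, a transcription factor of the interferon response, and with TAP1. These relations were chosen after the values had been seen, and 15 were computed on log2(CPM + 1), with 100000 permutations each and Benjamini-Hochberg adjustment over the 15. The permutations shuffled all 21 libraries without regard to the 8 groups. The p values therefore allow neither for the groups nor for the choice of relations. For deviations from group means, given below, no p was computed. Pearson's r with IRF1 was 0.88 for PSMB8, 0.90 for PSMB9 and 0.68 for PSMB10, with Spearman's rho of 0.78, 0.87 and 0.80 and adjusted permutation p of at most 0.0019. With TAP1 r was 0.95, 0.96 and 0.73, with rho of 0.94, 0.95 and 0.81 and adjusted permutation p of at most 0.00069. The smallest raw p of 1e-05 is the smallest the permutations can give. The 2 genes of each pair share the library, its depth and its scaling, and TAP1 is the direct neighbour of PSMB9 and PSMB8.

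For the constitutive counterparts, r of PSMB6 and PSMB7 with IRF1 was -0.01 and 0.02, and with TAP1 -0.14 and -0.06, with adjusted permutation p of at least 0.698. With the mean log2 level of 6 leukocyte markers, r was 0.67 for PSMB8, 0.55 for PSMB9 and 0.52 for PSMB10, and -0.54 and -0.51 for PSMB6 and PSMB7. The adjusted permutation p values of these 5 r were 0.0055 to 0.026, and rho was 0.63, 0.59 and 0.57 for the immune subunits, -0.37 for PSMB6 (adjusted permutation p = 0.13) and -0.49 for PSMB7. Without the 2 libraries farthest in leukocyte level, r of PSMB6 and PSMB7 was -0.28 and -0.31, so these relations rest in part on those libraries. It was -0.50 and -0.39 in the 17 libraries that did not stand apart, and -0.71 and -0.45 for deviations from group means. Over the 9 relations of the immune subunits, r stayed between 0.53 and 0.93 after leaving out the 2 libraries farthest from the median of the x axis, between 0.62 and 0.95 in the 17 libraries that did not stand apart, and between 0.49 and 0.98 for deviations from group means. The 4 libraries that stood apart are too few for an r of their own. In bulk tissue fewer cells of a type and less RNA per cell cannot be told apart, and the part of leukocyte content in these relations was not tested.

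**Figure D4:**
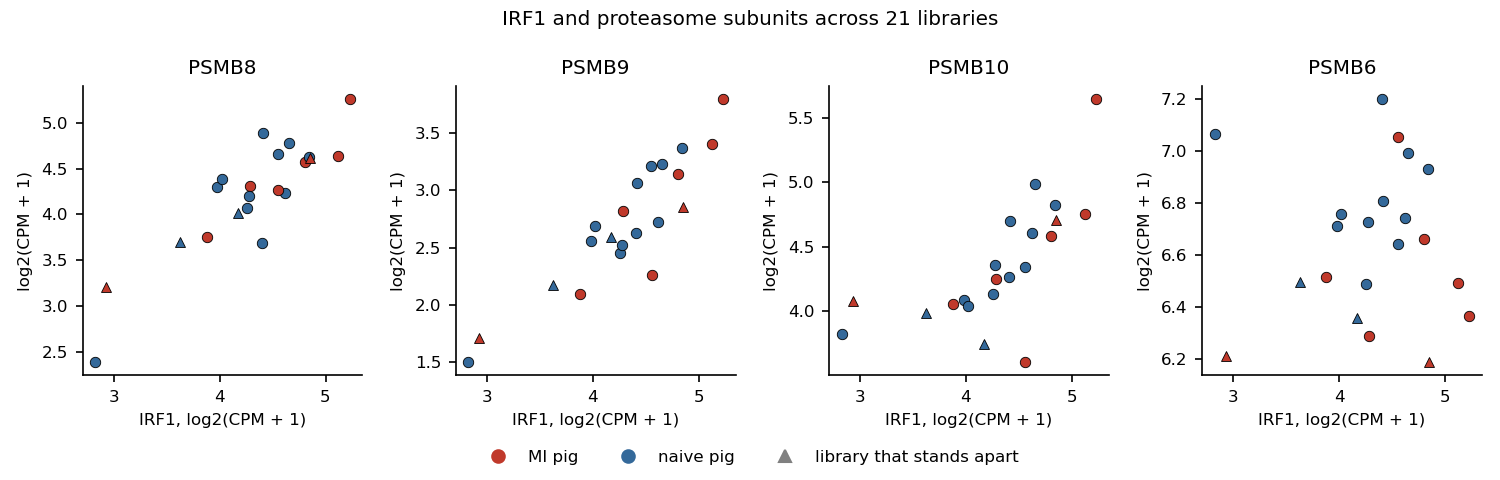
Level of PSMB8, PSMB9, PSMB10 and PSMB6 (y axes, log2(CPM + 1)) against IRF1 (x axes, same scale) in 21 libraries, with MI pigs in red, naive pigs in blue and triangles for the 4 libraries that stood apart. The immune catalytic subunits climb with IRF1 over the 21 libraries (Pearson's r 0.88, 0.90 and 0.68), while PSMB6 shows no slope (r -0.01).

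On day 7 edgeR called 0 of the 36 genes between MI and naive hearts at an adjusted p under 0.05, with a background of 0% of the 15359 genes. At an unadjusted p under 0.05 there were 5, all lower in MI and 1 of them PSMC3IP, with a background of 12.4%. DESeq2 called 0, and limma voom with sample weights called 3 (PSMB2, PSMB4 and PSME1, all lower, background 13.3%). Where DESeq2 or voom called 0 of the 36, here and below, the share of all genes it called is not given. Those counts of 0 are therefore not set against all genes. Fold changes were below 0 for 27 of 36, against 46.8% of all genes, and their median was -0.16 on the log2 scale, against 0.03 for all genes. The MI and naive groups did not overlap for 9 genes that were lower, PSMC3IP among them (background 10.4%), and for 1 that was higher, PSMD11 (background 13.9%). Without the libraries that stood apart the median was -0.13, with 0 calls. Of the 9, 5 are in the constitutive beta ring: PSMB1, PSMB2, PSMB3, PSMB4 and PSMB6.

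PSMB4, a structural subunit of the beta ring, had 60.2, 67.1 and 54.3 CPM in MI hearts on day 7, against 88.9, 85.3 and 96.0 CPM in naive hearts. Every MI value lay under every naive value, and the log2 fold change was -0.57 with an SE of 0.24 (edgeR adjusted p = 0.349). PSMB2, another structural subunit, had 43.4, 48.8 and 41.9 CPM in MI hearts, against 54.4, 64.7 and 73.5 CPM in naive hearts, a fold change of -0.52 on the log2 scale (SE 0.22, adjusted p = 0.349). PSMB6, which holds a cutting site, had 77.1, 88.9 and 73.1 CPM in MI hearts, against 106, 105 and 111 CPM in naive hearts, and its fold change was -0.43 (SE 0.23, adjusted p = 0.469). PSMB7 had a fold change of 0.15 (SE 0.25), and its groups overlapped. The alpha ring lay between -0.34 (PSMA1) and -0.17 (PSMA7), with all 5 below 0. The ATPases lay between -0.48 (PSMC4) and 0.22 (PSMC5), with 2 of 6 below 0.

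PSME1 (ENSSSCG00000002006) had 3.98, 4.37 and 3.66 CPM in MI hearts on day 7, against 6.003, 5.19 and 6.91 CPM in naive hearts. The groups did not overlap (log2 fold change -0.59, SE 0.24, edgeR adjusted p = 0.335), and the naive day 7 hearts were above all other 18 libraries, which had 2.402 to 4.71 CPM. PSME2, the partner of PSME1 in the same cap, had 6.18, 6.62 and 3.27 CPM in MI hearts, against 4.68, 4.03 and 6.59 CPM in naive hearts, and these overlap. PSMD14 (ENSSSCG00000015892), the enzyme that cuts ubiquitin from substrates, had 35.4, 34.6 and 20.9 CPM in MI hearts, against 41.4, 53.7 and 49.2 CPM in naive hearts. Its groups did not overlap, and the log2 fold change was -0.67 with an SE of 0.29 (adjusted p = 0.372). The value of 20.9 CPM is from a library that stood apart, and without those libraries the fold change of PSMD14 was -0.50, against -0.54 for PSMB4, -0.52 for PSMB2, -0.41 for PSMB6 and -0.58 for PSME1.

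Markers of other cells had median fold changes away from 0 on day 7, but 0 marker genes were called (background 0%). In each list below the sums of MI and naive hearts overlapped. Fibroblast markers had a median log2 fold change of -0.79, with sums of 1315 to 6560 CPM in MI and 6127 to 7068 CPM in naive hearts. Lymphocyte markers had a median of -0.71, with 9.25 to 18.1 CPM in MI and 15.7 to 17.9 CPM in naive hearts. Smooth muscle markers had a median of 0.62, with 155 to 503 CPM in MI and 212 to 266 CPM in naive hearts. Leukocyte and macrophage markers had medians of -0.23 and -0.36, with sums of 102 to 155 and 227 to 424 CPM in MI hearts, against 144 to 159 and 393 to 419 CPM in naive hearts. The lowest MI sums of fibroblast, lymphocyte and smooth muscle markers were all from replicate 3, a library that stood apart. The part of these cells in the day 7 values was not tested.

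On day 14 the proteasome genes of MI and naive hearts lay closest together. edgeR called 0 of 36 (background 0%), and 0 had an unadjusted p under 0.05 (background 5.35%). DESeq2 and voom each called 0, with the share over all genes not given. The median log2 fold change was -0.03, against -0.01 for all genes, with 20 of 36 below 0 (background 51.1%). The median was -0.06 when the libraries that stood apart were left out. The groups did not overlap for 0 genes in either direction, with backgrounds of 3.73% higher and 4.49% lower. The 95% interval of the fold change lay within 2-fold in both directions for 32 of 36 genes and within 1.5-fold for 19. All 5 alpha ring genes were between 0.01 and 0.06. PSMB6 had 100, 81.4 and 90.3 CPM in MI hearts, against 121, 104 and 81.0 CPM in naive hearts, and PSMB7 had 126, 94.2 and 82.6 CPM in MI hearts, against 117, 106 and 77.6 CPM in naive hearts. Both pairs of groups overlap. The 3 immune catalytic subunits and PSME4, the nuclear cap that binds the core without the regulatory particle, had the largest fold changes in size, at 0.31 to 0.65 and -0.38.

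On day 28 the lowest adjusted p of any of these genes in any comparison was reached, and no gene passed. edgeR called 0 of 36, while it called 6.86% of all tested genes. At an unadjusted p under 0.05 there were 5, all lower in MI (background 27.0%): PSMD1, PSMD12, PSMD14, PSMA4 and PSMD6. DESeq2 called 1, PSMD1 (background 13.9%), and voom called 0. The median log2 fold change was -0.22, against 0.00 for all genes, with 27 of 36 below 0 (background 49.6%). The groups did not overlap for 8 lower genes, PSMC3IP among them (background 21.4%), and for 0 higher ones (background 16.4%). With 2 MI libraries intervals were wider, and 27 of 36 lay within 2-fold.

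PSMD1 (ENSSSCG00000016272), a large scaffold subunit of the base, had 62.3 and 58.1 CPM in MI hearts on day 28, against 101.6, 94.1 and 132.6 CPM in naive hearts. Both MI pigs lay under all 3 naive pigs, and the log2 fold change was -0.86 with an SE of 0.27 (edgeR adjusted p = 0.0566, DESeq2 adjusted p = 0.0316). PSMD14 had 31.7 and 21.4 CPM in MI hearts, against 42.3, 35.3 and 66.1 CPM in naive hearts, with no overlap (-0.85, SE 0.34, adjusted p = 0.119). PSMD12, a lid subunit, had 51.4 and 34.9 CPM in MI hearts, against 62.9, 60.1 and 80.2 CPM in naive hearts, again without overlap (-0.65, SE 0.24, adjusted p = 0.102). Without the libraries that stood apart, 1 of which gave the lower MI value of each of these 3 genes, the fold changes of PSMD1, PSMD14 and PSMD12 were -0.90, -0.76 and -0.47. PSMA4 of the alpha ring had -0.44 (SE 0.19, adjusted p = 0.150) and PSMD6 of the lid -0.41 (SE 0.18, adjusted p = 0.161). Cardiomyocyte markers summed to 38591 and 47451 CPM in MI hearts and to 75823 to 88345 CPM in naive hearts on day 28, and their part in these values was not tested.

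The MI pigs of day 28 differed from each other in most of these genes. Replicate 1 was above replicate 2 in 29 of the 36 genes, with a median log2 difference of 0.65, against 7416 of 15359 tested genes and a median of -0.02. PSMC3, an ATPase, had 241 and 97.1 CPM in MI hearts, one above and one below the 135, 133 and 137 CPM in naive hearts. PSMC5, another ATPase, had 296 and 142 CPM in MI hearts, against 156, 200 and 185 CPM in naive hearts, and PSMD3, a lid subunit, had 213 and 82.0 CPM in MI hearts, against 111, 108 and 153 CPM in naive hearts. In each of these 3 genes the MI pigs lie on both sides of the naive ones. PSMD1, PSMD12 and PSMD14 were under the naive range in both MI pigs. The 2 pigs also differed in other cells: macrophage markers summed to 302 CPM in replicate 1 and 3114 CPM in replicate 2, against 66.9 to 349 CPM in naive hearts, leukocyte markers to 80.3 and 578 CPM, against 35.4 to 135 CPM, and lymphocyte markers to 12.8 and 160 CPM, against 5.74 to 17.0 CPM. Fibroblast markers summed to 1750 CPM in replicate 1 and 20117 CPM in replicate 2, against 3750 to 6464 CPM in naive hearts. Smooth muscle markers summed to 1029 and 271 CPM, against 206 to 453 CPM, and adipocyte markers to 154 and 2.22 CPM, against 1.46 to 1.71 CPM. Their part in the difference was not tested.

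Because of this pair, the direction of the whole group on day 28 depended on which MI pig was kept. Without replicate 1 the median log2 fold change of the 36 genes was -0.59 and edgeR called PSMD7, a lid subunit, lower (-0.83, adjusted p = 0.0272, background 7.60%). Without replicate 2 the median was 0.11 and edgeR called PSMC3 higher (0.87, adjusted p = 0.0163, background 5.81%). Without the 4 libraries that stood apart the median was 0.03, with PSMC3 again called higher (0.84, adjusted p = 0.0206, background 6.80%). PSMD1 was negative in all 5 fits that left out 1 library of the comparison, at -0.94 to -0.70, as was PSMD14, at -1.14 to -0.55.

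**Figure D5:**
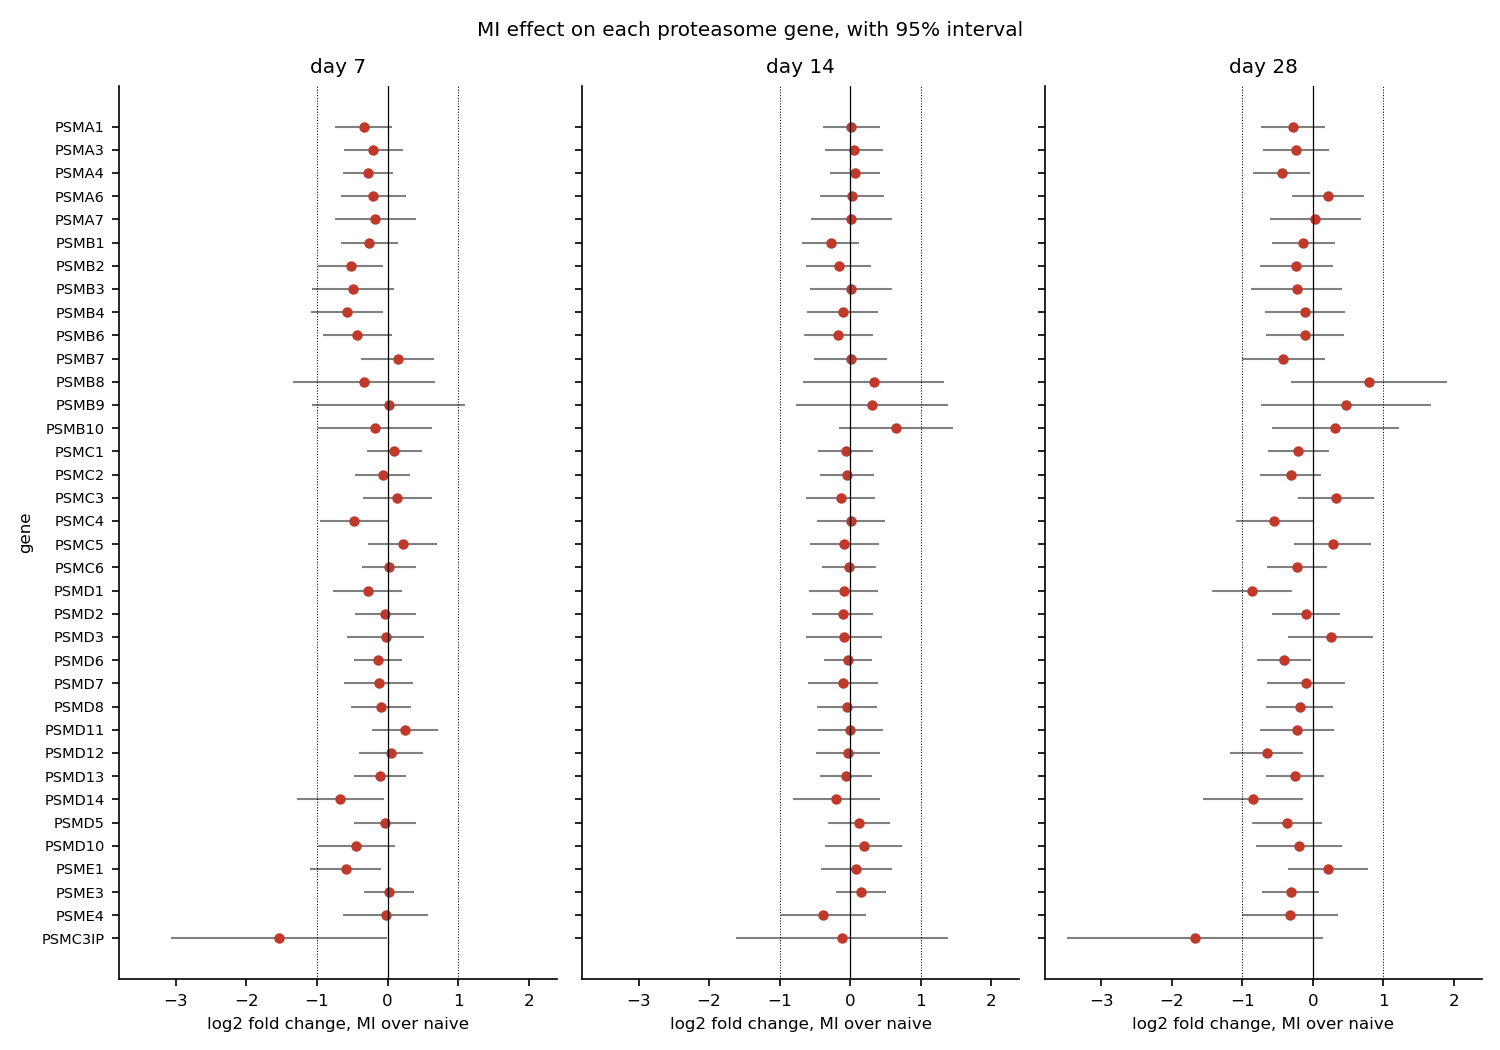
Log2 fold change of MI over naive hearts for each of the 36 genes on days 7, 14 and 28 (points) with 95% intervals (lines), dotted lines marking 2-fold. On day 14 the points lie near 0 (median -0.03), on days 7 and 28 most lie left of it (27 of 36 on each day), and the intervals of PSMB8, PSMB9, PSMB10 and PSMC3IP are the widest.

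Over the mean of days 7, 14 and 28, edgeR called 0 of 36 genes (background 4.43%). At an unadjusted p under 0.05 there were 6, all lower in MI and 1 of them PSMC3IP (background 23.1%). DESeq2 called 1, PSMD14 (background 9.97%), and voom 0. The median log2 fold change was -0.12, against 0.03 for all genes, and 28 of 36 were below 0 (background 46.2%). PSMD14 had the lowest adjusted p, with a mean fold change of -0.57 (SE 0.18, edgeR adjusted p = 0.0714, DESeq2 adjusted p = 0.0387). It was lower in MI by -0.67, -0.20 and -0.85 on days 7, 14 and 28. PSMD1 followed at -0.41 (SE 0.14, adjusted p = 0.0986). Leaving out the libraries that stood apart gave a median of -0.06, with PSMD14 at -0.52 and PSMD1 at -0.36. This comparison bounds the 36 genes most tightly: the 95% interval lay within 2-fold for 35 of them, all but PSMC3IP, against 68.4% of all genes. It lay within 1.5-fold for 28. PSMB8, PSMB9 and PSMB10 had mean fold changes of 0.27, 0.27 and 0.26 (SE 0.28, 0.31 and 0.23).

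A change of the MI effect between days was tested as an interaction. From day 7 to day 14 edgeR called 0 of 36 (background 0.00651%), with 0 at an unadjusted p under 0.05 (background 7.07%), and fold changes of effect were below 0 for 11 of 36 (background 53.1%). From day 7 to day 28 it called 0 (background 0.0130%), with 2 at an unadjusted p under 0.05 (background 19%): PSME1 at 0.81 (SE 0.36, adjusted p = 0.235) and PSMD12 at -0.70 (SE 0.32, adjusted p = 0.2503). There 19 of 36 were below 0 (background 52.9%). DESeq2 and voom called 0 in both. For PSMB8 the difference of effects between day 28 and day 7 was 1.13 (SE 0.71, adjusted p = 0.397), with a 95% interval from -0.37 to 2.62.

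Within MI hearts, edgeR called 0 of 36 between day 14 and day 7 (background 0%), with 0 at an unadjusted p under 0.05 (background 4.07%) and 15 of 36 below 0 (background 51.2%). Without overlap, 0 were higher (background 3.72%) and PSMD2 was lower (background 3.91%). It called 0 between day 28 and day 14 (background 0.0391%), with 1 at an unadjusted p under 0.05, PSMC3, at 0.56 (SE 0.25, adjusted p = 0.321, background 14.9%). There 24 of 36 were below 0 (background 49.3%), with 0 higher without overlap (background 10.7%) and PSMD1, PSMD5 and PSME3 lower (background 12.6%). DESeq2 and voom called 0 in both. Without the libraries that stood apart the last comparison had 3 calls, PSMC3, PSMC5 and PSMD3, all higher on day 28 (background 4.92%), and these rest on MI day 28 replicate 1, the only day 28 MI library then left.

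Whether the naive pigs had surgery is not settled, so age and any effect of surgery cannot be told apart here. In naive hearts, collected over the first 4 weeks, edgeR called 0 of 36 genes in each of 5 comparisons, with a background of 0% in all of them. DESeq2 also called 0. At an unadjusted p under 0.05 there was 1 gene on day 3 against day 1 (PSME4, background 3.54%), 1 on day 7 against day 1 (PSME1, background 5.44%), 1 on day 14 against day 7 (PSME1, background 8.84%), 0 on day 28 against day 14 (background 1.15%) and 1 on day 28 against day 1 (PSMB9, background 5.27%). By voom 2 were called, PSMB2 and PSME1, both lower on day 14 than on day 7 (background 5.98%), and 0 elsewhere.

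Directions were mixed along the naive series. Fold changes were below 0 for 12 of 36 genes on day 3 against day 1 (background 47.3%), 14 on day 7 against day 1 (background 50.8%), 27 on day 14 against day 7 (background 45.2%), 7 on day 28 against day 14 (background 53.4%) and 16 on day 28 against day 1 (background 45.8%). On day 3 against day 1, 4 genes were higher without overlap, PSMC3, PSMD7, PSMD11 and PSME4 (background 19.7%), and 6 were lower, PSMB8, PSMB9, PSMB10, PSMD5, PSMD10 and PSME1 (background 17.3%). On day 7 against day 1, PSMB4, PSMD7, PSME1 and PSME4 were higher (background 11.8%) and PSMB9 was lower (background 12.9%). On day 14 against day 7, PSMC5 was higher (background 10.1%) and PSMB4, PSMC4 and PSME1 were lower (background 6.80%). On day 28 against day 14, PSMC3 was higher (background 1.74%) and 0 were lower (background 3.02%). PSMD7 and PSME4 were thus above the day 1 hearts, without overlap, on days 3, 7 and 28, and these comparisons share the same 2 day 1 pigs. On day 14, which was not tested against day 1, both genes overlapped the day 1 hearts. Naive day 14 replicate 1 deviated from the median over libraries by -0.64 (log2) in PSME4, against -0.41 and -0.52 on day 1. For PSMD7 it deviated by -0.30, against -0.27 and -0.18.

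The immune catalytic subunits had the largest differences in size between naive hearts of day 1 and day 28. PSMB9 had 5.45, 3.50 and 1.83 CPM on day 28, against 8.35 and 8.23 CPM on day 1, and the log2 fold change was -1.20 with an SE of 0.57 (edgeR adjusted p = 0.867). PSMB8 (-1.08, SE 0.52) and PSMB10 (-0.78, SE 0.42) had the same adjusted p. The groups did not overlap for any of the 3, and these were the only lower genes among the 36 without overlap (background 12.5%), while 5 were higher without overlap, PSMC3, PSMD2, PSMD7, PSMD11 and PSME4 (background 12.6%). The day 3 hearts were also under the day 1 hearts in all 3 immune subunits. On day 7 this held for PSMB9 only, and naive day 7 replicate 3 exceeded both day 1 hearts in PSMB8. Values of PSMB9 and PSMB10 on day 14, not tested against day 1, overlapped those of day 1, while PSMB8 lay under them. Leukocyte markers summed to 35.4 to 135 CPM on day 28 and 145 to 166 CPM on day 1, and their part was not tested. The fold changes of PSMB8 and PSMB9 shrink without naive day 28 replicate 3, to -0.67 and -0.89. That of PSMB10 shrinks most without naive day 1 replicate 1, 1 of the 2 day 1 hearts, to -0.41.

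PSME1 was the subunit with the lowest unadjusted p in naive hearts, on either side of day 7. It had 6.003, 5.19 and 6.91 CPM on day 7, against 3.40 and 3.02 CPM on day 1 (log2 fold change 0.91, SE 0.28, edgeR adjusted p = 0.854), and 3.27, 4.61 and 2.81 CPM on day 14, against those same day 7 values (-0.76, SE 0.24, adjusted p = 0.372). Neither pair of groups overlaps. Both differences use the same 3 day 7 pigs, and the second was -0.66 without the libraries that stood apart. PSME4 had 139 and 103 CPM on day 3, against 73.3 and 68.0 CPM on day 1 (0.77, SE 0.35, adjusted p = 0.965), without overlap.

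PSMC3IP, the meiotic factor caught by the name, had 1.70, 2.75 and 0.383 CPM in MI hearts on day 7, against 4.70, 6.18 and 3.15 CPM in naive hearts (log2 fold change -1.54 with an SE of 0.73, edgeR adjusted p = 0.401). On day 28 it had 0.249 and 1.07 CPM in MI hearts, against 2.44, 1.72 and 2.10 CPM in naive hearts, a fold change of -1.67 (SE 0.86, adjusted p = 0.221). The groups overlapped on neither day, at levels near the rule's limit of 1 CPM. The 5 subunits named only by gene ID had median levels of 55.0 (PSMA2), 25.8 (PSMA5), 23.2 (PSMD4, a ubiquitin receptor), 9.82 (PSMD9, an assembly factor) and 5.53 CPM per kb (PSME2). PSMA5 lay under the range of the alpha ring genes above, and the other 4 lay inside the range of their class.

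Genes around the proteasome were counted in lists. The shares of all tested genes called by MI were 0% on day 7, 0% on day 14, 6.86% on day 28 and 4.43% over the mean of the days. Of 9 tested other proteasome and assembly genes, 0 were called on days 7, 14 or 28, and 1 over the mean of the days: AKIRIN2, which is needed for import of proteasomes into the nucleus, was lower, at a log2 fold change of -0.33 with an SE of 0.09 (edgeR adjusted p = 0.0447). On day 7 it had 47.7, 46.8 and 37.5 CPM in MI hearts, against 69.0, 65.5 and 62.9 CPM in naive hearts, without overlap (background 10.4% lower). Its fold change was -0.58 (SE 0.15) on day 7, -0.16 (SE 0.15) on day 14, where the groups overlapped, and -0.25 (SE 0.16) on day 28, where they did not (background 21.4%). The effects of day 14 and day 28 minus that of day 7 were 0.42 (SE 0.21, edgeR adjusted p = 0.727) and 0.33 (SE 0.22, adjusted p = 0.427). Of 8 tested regulators of proteasome genes, 1 was called on day 28, against 6.86% of all genes, and 0 in the other 3 comparisons: MAFF, a small partner of the factors that bind antioxidant elements, was higher by 3.43 (SE 0.76, adjusted p = 0.0223). That value rests on 1 pig, with 168 and 9.51 CPM in MI hearts, against 9.81, 8.60 and 6.28 CPM in naive hearts, and these overlap. NFE2L1, the factor that raises proteasome genes when the proteasome is inhibited, had 738 and 327 CPM in MI hearts on day 28, against 405, 502 and 300 CPM in naive hearts, and its fold change was 0.40 (SE 0.33, adjusted p = 0.452).

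The medians of all tested genes were 0.03 on day 7, -0.01 on day 14, 0.00 on day 28 and 0.03 over the mean of the days, with the shares called given above. Of 16 tested ubiquitin and delivery genes, 0 were called on day 7, 14 or 28 or over their mean, with medians of -0.04, 0.00, -0.16 and -0.03. Of 24 tested antigen presentation and interferon genes, 0 were called in the same 4 comparisons, with medians of 0.07, 0.42, 0.50 and 0.32. IRF1 had 22.5 and 27.9 CPM in MI hearts on day 28, against 15.2, 11.4 and 6.10 CPM in naive hearts, without overlap (background 16.4% higher, log2 fold change 1.21, SE 0.50, edgeR adjusted p = 0.136). TAP1 had 29.4 and 37.9 CPM in MI hearts, against 36.9, 25.2 and 12.7 CPM in naive hearts, which overlap (0.43, SE 0.48, adjusted p = 0.588). NLRC5, an activator of antigen presentation genes, had a log2 fold change of 0.59 (SE 0.56) in MI over naive hearts on that day.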

How the data were processed

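Gene counts of 21 pig heart libraries were analysed, as deposited by the authors in a table of raw read counts per Ensembl gene. Per the submitters' processing notes, the tools were Trim Galore, STAR 2.5.2, HTSeq 0.6.1 and DESeq2, on the build Sscrofa11.1. The sources used here give neither annotation release nor strand setting, so overlapping or near-identical genes may share reads.

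The filter filterByExpr (edgeR 4.0.16, 8 groups) left 15359 genes, scaled by TMM. All 21 libraries entered 1 model with a mean for each group (glmQLFit, robust, 13 residual degrees of freedom). Each of 13 comparisons was tested two-sided with edgeR's quasi-likelihood F-test, with Benjamini-Hochberg adjustment over the 15359 genes and a call at an adjusted p under 0.05. Levels are CPM with TMM-scaled library sizes, SEs come from the F statistic, and intervals are at 95%. RefSeq's annotation of Sscrofa11.1 gave positions, exon lengths and the 250-base promoter windows. DESeq2 1.42.0, limma 3.58.1 (voom with sample weights), RLE scaling, no filter, the compared groups alone, libraries left out in turn and leaving out or modelling the 4 libraries that stood apart were alternatives. The fit was tested on simulated data.

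Members and lists were chosen with earlier results of these data known. Genes were named by a fixed rule: the immune subunits and their constitutive partners always, then the smallest adjusted p per comparison and the extremes of each role. PSMD3, PSMC5 and PSMD7 on day 28 and the genes whose groups did not overlap were named after their values were seen. Replicates are separate pigs, numbered in order of listing.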

Additional observations from a re-analysis of the deposited data

How the results depend on the processing

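No paired analysis was possible because the replicate numbers only name pigs and pair none across groups. Of 185 alternative fits of the number of proteasome genes called, 174 gave 0 as reported and 11 gave at least 1, with 3 as the highest. The share over all genes is not given for alternative fits that called 0. Voom called 3 on day 7 (background 13.3%) and 2 for naive day 14 against day 7 (background 5.98%). DESeq2 called 1 on day 28 (background 13.9%) and 1 over the mean of the 3 days (background 9.97%). Without the libraries that stood apart the count was 1 on day 28 and 3 for MI day 28 against day 14. Leaving out MI day 14 replicate 1 gave 1 call over the mean, PSMD14 (background 7.04%). The other calls with 1 library left out came from fits that keep a single MI library on day 28. Of 322 named fold changes under another setting, 308 kept direction and side of the threshold, 8 passed it and 6 changed sign. PSMB9 on day 7, 0.02 as reported, was -0.019 with RLE, -0.0084 without a filter, -0.019 by DESeq2 and -0.015 with the compared groups alone. Without the libraries that stood apart PSMB10 was -0.35 and PSMB4 0.16 on day 28. Of 307 values with a library left out, 289 kept both, 3 passed the threshold and 15 changed sign. These ran from -0.66 to 0.00037 for PSMB8 and -0.50 to 0.41 for PSMB9 on day 7, and from -0.12 to 0.65 for PSMB8 and -0.21 to 0.74 for PSMB9 on day 14. On day 28 they ran from -0.35 to 0.82 for PSMB10, -0.24 to 0.61 for PSMA6, -0.63 to 0.32 for PSMB4, -0.44 to 0.87 for PSMC3 and -0.57 to 0.81 for PSMD3. PSMB7 ran from -0.85 to 0.042 for naive day 7 against day 1, PSMB10 from -0.053 to 0.85 for MI day 14 against day 7, and PSMC3 from -0.22 to 1.10 for MI day 28 against day 14. The ratio of PSMB9 to PSMB6 ran from -0.13 to 0.76, -0.20 to 0.87 and -0.068 to 1.52 on days 7, 14 and 28, and that of PSMB10 to PSMB7 from -0.49 to -0.26, 0.063 to 0.82 and -0.14 to 1.41. The cause of these moves was not tested. A single MI library on day 28 is assumed to vary like the other groups. How much group size and depth each set the width of the intervals was not separated. PSMC3IP was the most sparsely counted of the 36 genes, at 0.249 CPM in its lowest library.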
